A study of Mus musculus with 20 samples.

Results

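The genes that encode the subunits of voltage-gated calcium and sodium channels were followed through poly(A) RNA sequencing of the pituitary and of inguinal white adipose tissue, a fat pad under the skin of the groin (iWAT). They were chosen by symbol alone, as every pore-forming and accessory subunit of the 2 channel families that the symbol patterns matched, and make up 38 of the 24062 genes counted. The calcium channel genes are 10 alpha1, 4 alpha2delta, 4 beta and 8 gamma subunits, and the sodium channel genes are 8 alpha and 4 beta subunits. Scn2a is listed in the files under its older symbol Scn2a1, which the patterns do not match. It averaged 4.63 ± 0.634 RPKM in pituitary libraries labelled KO and 4.74 ± 0.519 RPKM in those labelled WT (SD, n = 5 each), and is not counted below. The study set male chow-fed C57BL/6N mice with a germline deletion of Klf14, a zinc finger transcription factor of the Krüppel-like family, against wild-type mice of the same strain, sex and diet. The 20 libraries form 4 groups of 5: pituitary labelled KO, pituitary labelled WT, iWAT labelled KO and iWAT labelled WT. The mice labelled KO were 19 to 21 weeks old and those labelled WT 18 to 21 weeks old. By the number in the sample title, KO 31, 32, 35 and 66 were 21 weeks old and KO 50 was 19. WT 33 and 34 were 21 weeks old, WT 48 and 49 were 19 and WT 56 was 18, so age was not balanced.

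Voltage-gated calcium channels open when the membrane depolarizes and let calcium into the cell, where it triggers secretion, contraction and gene expression. Their alpha1 subunit forms the pore and sets the channel type, while alpha2delta and beta subunits bring it to the membrane and tune its gating. Voltage-gated sodium channels carry the fast upstroke of the action potential through an alpha subunit, with single-pass beta subunits beside it. Endocrine cells of the pituitary fire action potentials, and calcium entry through such channels is tied to hormone release, whereas adipocytes are not classed among the excitable cells.

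Total counts were 13.6 to 17.6 M (mega) per pituitary library and 14.8 to 18.7 M per iWAT library. Klf14 itself does not check the genotype labels: it had 417 to 679 counts in pituitary libraries labelled KO and 196 to 304 counts in those labelled WT, so it was higher in labelled KO (log2 fold change 1.004, SE 0.086, edgeR adjusted p = 7.645e-05). Of the deletion, the sources used here do not say which stretch of Klf14 it removed, and directions below are those of the labels. Marker lists set the tissues apart: the summed level of 8 pituitary hormone and granule genes was 101000 to 153900 CPM (a gene's counts scaled to 1 M counts in the library) in the pituitary, and that of 6 adipocyte genes was at most 22.4 CPM in the pituitary, against 5280 to 19040 CPM in iWAT. A few libraries stood apart in markers of other cells. In iWAT the lymph node list (6 B and T cell genes) summed to 10.5 CPM in KO 50 and 168.7 CPM in WT 49, against 361.2 to 815.8 CPM in the other 8 libraries, where the number is the one in the sample title. The same 2 libraries were the lowest in the skeletal muscle list and were the highest in blood genes (4850 and 2525 CPM, against 600.9 to 1463 CPM). They were also the highest in 4 endothelium genes (1307 and 990.1 CPM), and KO 50 was the highest in the adipocyte list (19040 CPM, next 14470 CPM in WT 33). The pituitary hormone list summed to 123.6 CPM in iWAT KO 32 and to at most 2.002 CPM in the other iWAT libraries. In the pituitary the macrophage list was highest in KO 50 (164.3 CPM, against 47.7 to 73.0 CPM in the others) and the posterior lobe list in KO 66 (209.6 CPM, against 71.6 to 144.6 CPM).

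Promoters were available for 28 of the 38 genes, and 4 are shown here for the tissue pattern described below: Cacna2d1 and Cacna1b were higher in the pituitary, while Cacna1i and Cacna1e had the largest shares of the alpha1 level in WT iWAT. Each run is the 250 bases before the RefSeq start on the gene's strand (GRCm38.p6), 5′ to 3′, which is also the gene start in the files. Capitals mark the GC box, GGGCGG on either strand, with overlapping matches joined. The positions are chr5:15934441-15934690 on the plus strand for Cacna2d1, chr2:24763153-24763402 on the minus strand for Cacna1b, chr15:80286988-80287237 on the plus strand for Cacna1i and chr1:154725921-154726170 on the minus strand for Cacna1e.
Cacna2d1: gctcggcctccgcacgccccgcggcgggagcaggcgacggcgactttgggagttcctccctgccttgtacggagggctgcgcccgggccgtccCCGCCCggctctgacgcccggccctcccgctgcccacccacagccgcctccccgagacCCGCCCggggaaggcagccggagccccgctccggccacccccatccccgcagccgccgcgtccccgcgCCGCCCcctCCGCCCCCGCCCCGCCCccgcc
Cacna1b: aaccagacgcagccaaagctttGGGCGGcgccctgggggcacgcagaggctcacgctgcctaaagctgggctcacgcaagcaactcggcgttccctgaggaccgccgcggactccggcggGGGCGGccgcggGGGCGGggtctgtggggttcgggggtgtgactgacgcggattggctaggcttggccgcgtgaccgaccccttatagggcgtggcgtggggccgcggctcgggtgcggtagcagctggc
Cacna1i: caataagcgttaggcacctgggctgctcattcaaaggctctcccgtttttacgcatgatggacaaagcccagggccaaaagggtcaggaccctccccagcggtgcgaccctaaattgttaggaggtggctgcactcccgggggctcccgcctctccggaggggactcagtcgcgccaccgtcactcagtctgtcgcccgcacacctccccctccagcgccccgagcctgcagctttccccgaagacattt
Cacna1e: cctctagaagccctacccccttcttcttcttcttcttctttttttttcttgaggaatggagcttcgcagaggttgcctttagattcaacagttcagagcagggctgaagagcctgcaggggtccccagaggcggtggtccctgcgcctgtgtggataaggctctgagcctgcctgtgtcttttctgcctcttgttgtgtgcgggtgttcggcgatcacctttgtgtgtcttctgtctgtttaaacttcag
The Cacna2d1 promoter held 6 GC boxes with a GC content of 82.4%, and that of Cacna1b held 3 with 72.0%. Those of Cacna1i (62.4% GC) and Cacna1e (52.0% GC) held none of these letters. Over the 38 promoters of the 28 genes, 14 (36.8%) held a GC box, against 32.7% of all 32851 promoters of that length. The E-box CANNTG was in 63.2% of the channel promoters and 66.2% of all, and the letters TGACG of a cyclic AMP response element were in 15.8% and 17.8%, both searched on either strand. A match is a description of letters and not of a binding site. The 4 promoters shown are picked examples, and GC boxes were not counted by the direction of the tissue difference. Whether they go with the tissue pattern was not tested.

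More of the subunits were present in the pituitary than in iWAT. A mean above 1 RPKM (CPM divided by the exon length in kilobases, the scale on which genes are compared) was reached by 28 of 38 genes in the pituitary, 73.7% against 63.0% of all genes counted, and by 15 of 38 in iWAT, 39.5% against 61.2% of all genes. Between WT tissues, 28 members were higher and 4 lower in the pituitary than in iWAT among the 35 tested (edgeR quasi-likelihood test, adjusted p under 0.05). Over all 17023 genes tested, 79.1% passed, 40.2% as higher and 38.9% as lower. Between the tissues of mice labelled KO, 28 were higher and 4 lower among 36 tested, against 37.3% and 37.8% of all genes (75.1% in all). A gene can pass the filter on low counts through the tissue in which it is high, so these counts describe the genes tested and not all members. Cacna1s and Cacng1 were not tested in either comparison, and Cacng3 was not tested between WT tissues. In bulk tissue fewer cells of a type and less RNA per cell cannot be told apart.

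**Figure D1:**
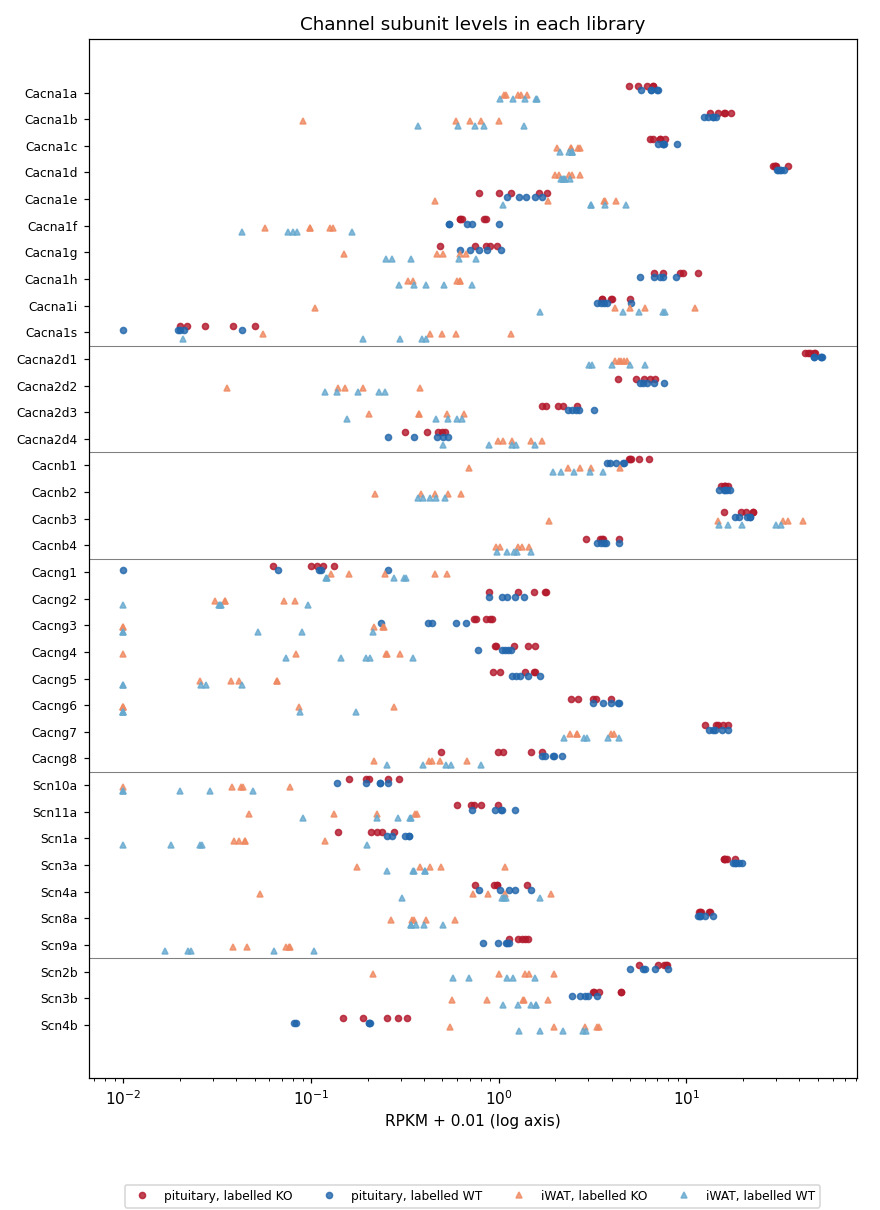
RPKM + 0.01 on a log axis for 36 of the 38 genes, 1 point per library (5 per group), circles for the pituitary and triangles for iWAT, grouped by subunit class from calcium channel alpha1 at the top to sodium channel beta at the bottom. Most circles lie right of the triangles, while Scn4b, Cacna2d4 and Cacna1e lie the other way, and the iWAT points of Cacna1i and Cacnb3 include a far lower one.

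Among the alpha1 subunits, Cacna1d, the pore of an L-type channel that opens at relatively negative voltages, was the most abundant in the pituitary. It had 29.5, 28.9, 30.2, 34.6 and 29.7 RPKM in libraries labelled KO (numbers 31, 32, 35, 50 and 66, the order used throughout), against 30.5, 30.6, 31.5, 33.2 and 32.0 RPKM in libraries labelled WT (numbers 33, 34, 48, 49 and 56). The groups overlapped, with KO 50 the highest of the 10. In iWAT it averaged 2.31 ± 0.285 RPKM in labelled KO and 2.23 ± 0.0853 RPKM in labelled WT libraries (SD, n = 5 each), so in WT mice it was 14.1-fold higher in the pituitary (log2 fold change 3.81, SE 0.058, edgeR adjusted p = 3.302e-12). Reads of Cacna1d can also come from Chdh, whose exons overlap it. Of the summed alpha1 RPKM in WT pituitary, Cacna1d made up 43.1% ± 1.57 and Cacna1b, the pore of N-type channels that serve transmitter release, 18.5% ± 1.12 (SD, n = 5). The L-type Cacna1c followed at 10.5%, the T-type Cacna1h at 9.80% and the P/Q-type Cacna1a at 8.92%. Between WT tissues, log2 fold changes (pituitary over iWAT) were 4.11 for Cacna1b, 4.003 for Cacna1h, 3.08 for Cacna1f, 2.28 for Cacna1a and 1.70 for Cacna1c, all past the threshold. Cacna1f passed the filter on low counts only through the pituitary, which fixes the direction of its tissue difference. Exons of Cacna1h overlap those of Tpsg1. Cacna1f, the L-type pore of photoreceptors, and Cacna1g were low, at 0.703 ± 0.120 and 0.782 ± 0.191 RPKM in pituitary labelled KO and 0.686 ± 0.190 and 0.791 ± 0.156 RPKM in pituitary labelled WT (SD, n = 5 each). Cacna1d lies on chromosome 14, 30039939 to 30491156, minus strand (mm10).

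The alpha1 subunits of iWAT had another make-up. Cacna1i, a T-type pore best known from the thalamus, led with 31.1% ± 10.0 of the summed alpha1 RPKM in WT iWAT, followed by the R-type Cacna1e with 18.3% ± 5.82 (SD, n = 5). Cacna1c followed at 15.1% and Cacna1d at 14.4%. Cacna1i had 11.1, 4.13, 5.99, 0.0949 and 5.02 RPKM in iWAT labelled KO, against 5.61, 4.56, 7.52, 1.64 and 7.63 RPKM in iWAT labelled WT. Its 2 lowest libraries were KO 50 and WT 49, which were also the lowest in the lymph node list. Its pituitary level of 3.34 to 5.04 RPKM in WT libraries lay within that range, and the tissue difference did not pass in WT mice (log2 fold change -0.49, SE 0.33, edgeR adjusted p = 0.193). Without WT 49 it passed as lower in the pituitary (-0.72, adjusted p = 0.0066). Cacna1e passed as lower in the pituitary than in iWAT in both genotypes, by log2 fold changes of -1.17 in WT mice (edgeR adjusted p = 0.0051) and -1.17 in mice labelled KO (0.0483). The call in mice labelled KO was lost without the 20 most abundant genes (adjusted p = 0.0525), with no filter on low counts (0.0618), with the title number as a block (0.108) and without KO 31, 32, 35 or 66 (0.0978 to 0.179). Cacna1g, a T-type pore, was higher in WT pituitary by 0.86 (adjusted p = 0.0257), a call lost without WT 33, 48 or 56 (adjusted p up to 0.122). In mice labelled KO it did not pass in edgeR (0.68, adjusted p = 0.107), and it passed in limma voom (adjusted p = 0.0321).

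**Figure D2:**
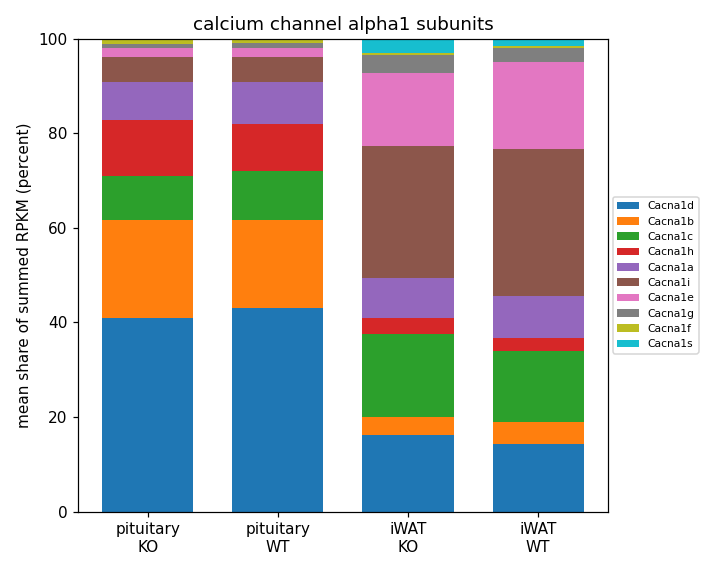
Mean share in percent of the summed RPKM of the calcium channel alpha1 subunits in the 4 groups of 5 libraries, with 1 colour per gene. Cacna1d and Cacna1b fill most of the pituitary bars, while Cacna1i is the widest band in iWAT.

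The accessory calcium channel subunits were led by Cacna2d1, the alpha2delta protein that binds gabapentin and the most abundant of all 38 genes in the pituitary (chromosome 5, 15934691 to 16374511, plus strand, mm10). It had 48.0, 45.4, 48.7, 44.2 and 43.0 RPKM in pituitary libraries labelled KO, against 47.8, 52.2, 52.7, 52.0 and 47.7 RPKM in those labelled WT. The 3 highest values were labelled WT, and the groups overlapped. It supplied 84.2% ± 1.30 of the alpha2delta RPKM in WT pituitary (SD, n = 5), and was 11.9-fold higher there than in WT iWAT (log2 fold change 3.57, SE 0.18, edgeR adjusted p = 1.322e-08). In iWAT it had 4.16, 4.79, 4.46, 4.38 and 4.61 RPKM in labelled KO libraries and 4.96, 4.02, 3.03, 5.97 and 3.14 RPKM in labelled WT libraries, with WT values on both sides of all KO values. Cacna2d2 and Cacna2d3 were also higher in WT pituitary, by 5.19 and 2.48 on the log2 scale, with 6.39 ± 0.770 and 2.64 ± 0.333 RPKM there. Cacna2d4, known from the retina, was lower there by a log2 fold change of -1.36 (SE 0.31, edgeR adjusted p = 0.0016), and held 0.693% of the alpha2delta RPKM in WT pituitary against 18.7% in WT iWAT.

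Beta subunits bind the alpha1 subunit inside the cell. Cacnb3 had 22.6, 19.4, 15.8, 22.6 and 20.8 RPKM in pituitary labelled KO, against 21.0, 19.0, 21.8, 21.8 and 18.1 RPKM in pituitary labelled WT. Cacnb2 had 16.5, 15.8, 16.1, 15.2 and 16.0 RPKM against 14.8, 15.8, 17, 16.1 and 16.5 RPKM in the same groups. For both genes the labelled genotypes overlapped. Between tissues, Cacnb2 was higher in WT pituitary (log2 fold change 5.23, SE 0.099, edgeR adjusted p = 9.658e-12), whereas Cacnb3 did not pass (-0.16, SE 0.20, adjusted p = 0.490). Cacnb3 was the most abundant of the 38 genes in iWAT and it gave 45.9% ± 2.18 of the beta subunit RPKM in WT pituitary, against 83.4% ± 3.16 in WT iWAT (SD, n = 5 each). In iWAT it had 34.9, 41.9, 32.7, 1.85 and 14.8 RPKM in labelled KO libraries and 19.7, 29.9, 31.9, 14.9 and 16.6 RPKM in labelled WT libraries. KO 50 lay far below the other 9. Cacnb1 and Cacnb4 were higher in WT pituitary by 0.67 and 1.62 on the log2 scale.

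Gamma subunits are named after the skeletal muscle member Cacng1, but several of them are best known as auxiliary proteins of AMPA receptors. Cacng7, one of these, led in both tissues with 59.8% ± 2.402 of the gamma RPKM in WT pituitary and 75.1% ± 8.59 in WT iWAT (SD, n = 5 each). In iWAT it had 2.39, 4.11, 2.61, 3.97 and 2.59 RPKM in labelled KO libraries and 4.38, 3.79, 2.20, 2.83 and 2.95 RPKM in labelled WT libraries, from only 30 to 58 counts per library, and the groups overlapped. In the pituitary it averaged 14.8 ± 1.502 RPKM in labelled KO and 14.7 ± 1.37 RPKM in labelled WT libraries. Cacng2, Cacng5 and Cacng6 had 37 to 58, 65 to 101 and 36 to 57 counts per WT pituitary library and at most 4, 2 and 2 counts per WT iWAT library. Cacng4 had 11 to 19 counts per WT pituitary library and 1 to 5 per WT iWAT library, and Cacng3 had 0 to 5 in WT iWAT. Cacng2, Cacng4, Cacng5 and Cacng6 passed the filter on low counts only through the pituitary, which fixes the direction of their tissue difference.

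Among the sodium channel alpha subunits, Scn3a, an embryonic brain pore, was the most abundant in the pituitary (chromosome 2, 65457118 to 65567492, minus strand, mm10). It had 18.2, 16.0, 15.9, 15.9 and 16.4 RPKM in libraries labelled KO, against 19.6, 18.2, 17.7, 18.2 and 19.0 RPKM in libraries labelled WT. KO 31 overlapped the labelled WT libraries, and the other 4 labelled KO libraries lay below all of them. Scn3a made up 45.3% ± 1.95 and Scn8a, a pore of central and peripheral neurons, 29.98% ± 2.18 of the alpha RPKM in WT pituitary (SD, n = 5 each). Between WT tissues they were higher in the pituitary by 5.75 and 5.01 on the log2 scale, with Scn3a the largest at a 53.7-fold difference (SE 0.12 on the log2 scale, edgeR adjusted p = 1.58e-11). The 8 alpha subunits summed to 40.9 ± 3.20 RPKM in pituitary labelled KO and 41.0 ± 1.25 RPKM in pituitary labelled WT, against 2.61 ± 1.41 RPKM in iWAT labelled KO and 2.59 ± 0.623 RPKM in iWAT labelled WT (SD, n = 5 each).

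Scn9a, Scn10a and Scn11a are known from sensory neurons. A list of 7 neuron genes summed to 43.9 to 55.4 CPM in the pituitary and 7.79 to 18.2 CPM in iWAT. Not all of its genes went this way. Stmn2 had a median of 4.03 CPM in the pituitary and 6.99 CPM in iWAT, and Prph 0.142 and 0.477 CPM. The rest of the list was higher in the pituitary by median. The part of neurons in the channel values was not tested. Scn9a had 14.2, 13.7, 13.2, 12.6 and 11.3 CPM in pituitary labelled KO, against 10.8, 11.2, 8.13, 9.81 and 11.01 CPM in pituitary labelled WT. The groups did not overlap, by a narrow margin. In iWAT Scn9a had only 13, 9, 11, 4 and 6 counts in labelled KO and 15, 2, 2, 8 and 1 counts in labelled WT libraries. Scn11a had 0.726, 0.796, 0.701, 0.974 and 0.585 RPKM in pituitary labelled KO and 0.945, 1.03, 0.712, 1.21 and 1.02 RPKM in pituitary labelled WT, overlapping. In iWAT it had 24, 10, 34, 3 and 35 counts in labelled KO and 20, 30, 27, 7 and 29 counts in labelled WT libraries, with KO 50 and WT 49 the lowest. Scn10a had 29, 21, 29, 13 and 19 counts in pituitary labelled KO, 24, 12, 20, 23 and 23 counts in pituitary labelled WT, 4, 3, 0, 6 and 3 counts in iWAT labelled KO and 4, 1, 2, 0 and 0 counts in iWAT labelled WT. All 3 were higher in WT pituitary than in WT iWAT, by 4.80 (Scn9a), 3.74 (Scn10a) and 1.98 (Scn11a) on the log2 scale. Scn9a and Scn10a passed the filter on low counts only through the pituitary, which fixes the direction of their tissue difference. Scn1a, a pore of central neurons, had 17 to 35 counts in pituitary labelled KO, 34 to 43 in pituitary labelled WT, 4 to 15 in iWAT labelled KO and 0 to 25 in iWAT labelled WT. Scn1a, too, passed that filter only through the pituitary. Reads of Scn9a can also come from Gm13629, whose exons overlap it.

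Of the 4 sodium channel beta subunits, 2 were higher and 2 lower in WT pituitary than in WT iWAT. Their summed level was 19.6 ± 1.10 RPKM in pituitary labelled KO and 16.7 ± 1.86 RPKM in pituitary labelled WT, and 22.6 ± 7.95 RPKM in iWAT labelled KO and 21.1 ± 1.80 RPKM in iWAT labelled WT (SD, n = 5 each). Scn4b, which binds alpha subunits through a disulfide bond, was lower in WT pituitary than in WT iWAT (log2 fold change -3.90, SE 0.35, edgeR adjusted p = 1.107e-06). Scn4b averaged 0.231 ± 0.0719 RPKM in pituitary labelled KO, 0.145 ± 0.0671 RPKM in pituitary labelled WT, 2.43 ± 1.20 RPKM in iWAT labelled KO and 2.17 ± 0.715 RPKM in iWAT labelled WT. Scn2b and Scn3b were higher in WT pituitary, by 2.64 and 1.04 on the log2 scale.

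In the libraries labelled KO, which the WT comparison does not use, the log2 fold changes were 3.67 for Cacna1d, 4.55 for Cacna1b, 3.30 for Cacna2d1, 5.14 for Cacnb2, 4.97 for Scn3a, 4.96 for Scn8a, -3.44 for Scn4b and -1.60 for Cacna2d4. The pituitary and iWAT libraries did not overlap for 30 of 36 members in mice labelled KO, 27 higher and 3 lower in the pituitary. Of all genes 63.6% did not overlap, 35.5% higher and 28.2% lower. In WT mice it was 29 of 35 members, 27 higher and 2 lower, against 69.3% of all genes (36.3% and 33%). These counts include members that passed the filter on low counts only through the pituitary, which fixes their direction. Without KO 50 the comparison in mice labelled KO had 7 lower members in place of 4, among 37 tested in place of 36. Of all genes 77.2% passed without KO 50, against 75.1% with it. Among the 7 were Cacna1i (-0.74, edgeR adjusted p = 0.0382) and Cacnb3 (-0.69, adjusted p = 0.0423). The call of Cacnb1 between the tissues of mice labelled KO (log2 fold change 0.97) was lost without KO 32, 35 or 66, with edgeR adjusted p of 0.0588 to 0.0949.

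In the pituitary, none of 36 members tested differed between labelled KO and labelled WT at an adjusted p under 0.05 (edgeR), while 0.549% of all 16389 genes did (0.415% higher and 0.134% lower). The most evident values were those of Cacnb1, the beta subunit of skeletal muscle that also serves other excitable cells (chromosome 11, 98001508 to 98022627, minus strand, mm10). It had 6.33, 5.06, 4.99, 4.95 and 5.57 RPKM in labelled KO, against 4.57, 3.92, 4.63, 4.19 and 3.78 RPKM in labelled WT libraries. All 5 labelled KO values lay above all labelled WT values, a log2 fold change of 0.35 (SE 0.088, edgeR adjusted p = 0.108). Scn3a, with the library values given above, had a log2 fold change of -0.18 (SE 0.047, adjusted p = 0.128). With DESeq2 these 2 genes passed, Cacnb1 as higher (adjusted p = 0.0362) and Scn3a as lower (adjusted p = 0.0290), where 1.79% of all genes passed. Over all alternatives the adjusted p of Cacnb1 spanned 0.0362 to 1 and that of Scn3a 0.0290 to 1, and Scn3a also passed in edgeR without KO 31 (adjusted p = 0.0496). With age as a covariate in edgeR, the adjusted p was 0.308 for Cacnb1 and 0.198 for Scn3a, and 0.268% of all genes passed.

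At an unadjusted p under 0.05, 12 of the 36 members were past the level, 33.3% against 10.9% of all genes tested, 6 with higher and 6 with lower values in labelled KO (6.25% and 4.69% of all genes). Their smallest adjusted p was the 0.108 of Cacnb1, so they are given as values. Besides Cacnb1, log2 fold changes above 0 included 0.82 for Cacng3 (SE 0.26), 0.38 for Scn3b (SE 0.12), 0.34 for Scn9a (SE 0.10) and 0.18 for Cacna1b (SE 0.065). Besides Scn3a, those below 0 were -0.73 for Cacng8 (SE 0.25), -0.49 for Scn1a (SE 0.20), -0.39 for Scn11a (SE 0.16), -0.37 for Cacna2d3 (SE 0.13) and -0.14 for Cacna2d1 (SE 0.048). Cacng3, Scn9a and Cacnb1 were the 3 members whose groups did not overlap, all higher in labelled KO, against 2.85% of all genes (1.91% higher and 0.94% lower). For Cacng3 the counts were low, 25, 22, 22, 15 and 18 in labelled KO against 11, 13, 17, 5 and 10 in labelled WT libraries, and KO 31, the deepest pituitary library, had the highest count. Cacng8, an AMPA receptor partner like Cacng3, had 43, 23, 23, 9 and 32 counts in labelled KO and 45, 39, 41, 34 and 48 counts in labelled WT libraries. Scn3b had 4.47, 4.45, 3.40, 3.22 and 3.18 RPKM in labelled KO and 2.70, 2.86, 3.33, 2.46 and 2.98 RPKM in labelled WT libraries. Cacna2d3 had 1.76, 2.18, 1.69, 2.60 and 2.05 RPKM in labelled KO and 2.68, 2.56, 2.33, 3.19 and 2.46 RPKM in labelled WT libraries, with 4 of 5 labelled KO values below all labelled WT values.

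**Figure D3:**
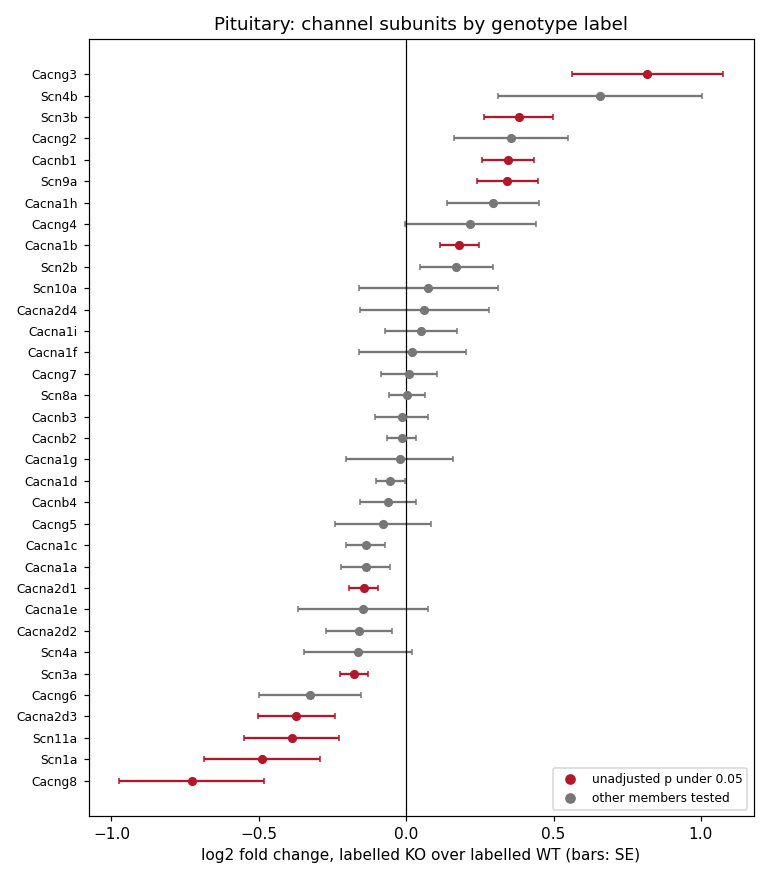
Log2 fold change, labelled KO over labelled WT, with its standard error for 34 of the 36 members tested in 5 against 5 pituitary libraries, sorted by size; red marks an unadjusted p under 0.05. Values run from -0.73 (Cacng8) to 0.82 (Cacng3), on both sides of 0.

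Summed over a class, the alpha2delta subunits had 52.2 to 56.6 RPKM in pituitary labelled KO and 56.5 to 61.8 RPKM in pituitary labelled WT, which overlap at their edges. The alpha1, beta, gamma and sodium channel alpha sums were close in the labelled genotypes, for example 74.6 ± 5.61 RPKM of alpha1 in labelled KO and 73.3 ± 2.62 RPKM in labelled WT libraries (SD, n = 5 each). The median log2 fold change was -0.0066 over the 36 members and 0.0036 over all genes, and the median size of the change was 0.167 and 0.0799. Low counts widen fold changes, and their part in this was not tested. The skeletal muscle list summed to 7.01 to 7.97 CPM in pituitary labelled KO and 7.81 to 10.2 CPM in pituitary labelled WT, and its part in the Cacnb1 values was not tested. Without KO 50, which was high in macrophage markers, or without KO 66, which was high in posterior lobe markers, no member passed. Of all genes 0.68% and 0.4% passed. In these fits 13 and 11 members were under an unadjusted p of 0.05, with no share of all genes at hand for comparison.

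In iWAT, none of 28 members tested differed between labelled KO and labelled WT (edgeR), as for all 16105 genes (0% called). No member had an unadjusted p under 0.05, against 0.553% of all genes (0.242% higher and 0.31% lower). The groups overlapped for all 28 members; they did not for 0.0745% of all genes (0.0497% higher and 0.0248% lower), and neither DESeq2 nor limma voom called any. The 10 members not tested for low counts were Cacna1f, Cacng1, Cacng2, Cacng3, Cacng4, Cacng5, Cacng6, Scn1a, Scn9a and Scn10a. Log2 fold changes ran from -0.30 for Cacna1b (SE 0.53) to 1.09 for Cacna1s (SE 0.77). The Cacna1s value was 0.61 without KO 31 and 0.30 with age as a covariate. The errors were wide for members with 1 far lower library: for Cacnb3 the value was 0.16 (SE 0.61) and for Cacna1i -0.03 (SE 0.78). For Cacna1d and Cacna1c, with steadier libraries, it was 0.05 for each (SE 0.096 and 0.090).

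In iWAT 1 library held a set of members at low levels. In KO 50, whose lymph node list was the lowest of the 10, 15 of 28 members were at their lowest, against 29.4% of all genes, and 12 of 28 were under 0.25 of the median of the 8 libraries other than KO 50 and WT 49, against 6.15%. Cacna1i had 0.929 CPM in KO 50 and 16.1 CPM in WT 49, against 40.5 to 109.0 CPM in the other 8. Cacnb3 had 5.58 CPM and 45.0 CPM, against 44.6 to 126.2 CPM. Scn4a, the skeletal muscle sodium channel, had 0.286 CPM and 1.94 CPM, against 4.75 to 12.5 CPM. For Cacna1i and Scn4a these 2 libraries were the lowest, and for Cacnb3 only KO 50 stood apart. Cacna1e had 5.65 CPM in KO 50 and 13.2 CPM in WT 49, against 23.1 to 60.0 CPM in the other 8, and Scn4b had 2.29 and 5.42 CPM, against 7 to 14.5 CPM. In all, 13 of 28 members were lower in both libraries than in the other 8, against 16.8% of all genes. Cacna1d (19.2 CPM in KO 50, against 18.4 to 24.96 CPM in the other 8), Cacna1c (39.1 against 30.1 to 39.7 CPM) and Cacna2d1 (32.8 against 22.7 to 37.2 CPM) were not low. In KO 50, 8 of 28 members lay within 1.5 times the median of the other 8 libraries, against 62.2% of all genes. KO 50 was also the lowest in the skeletal muscle list and the highest in the blood, adipocyte and endothelium lists. The part of lymph node tissue or of any other cell type in these values was not tested.

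**Figure D4:**
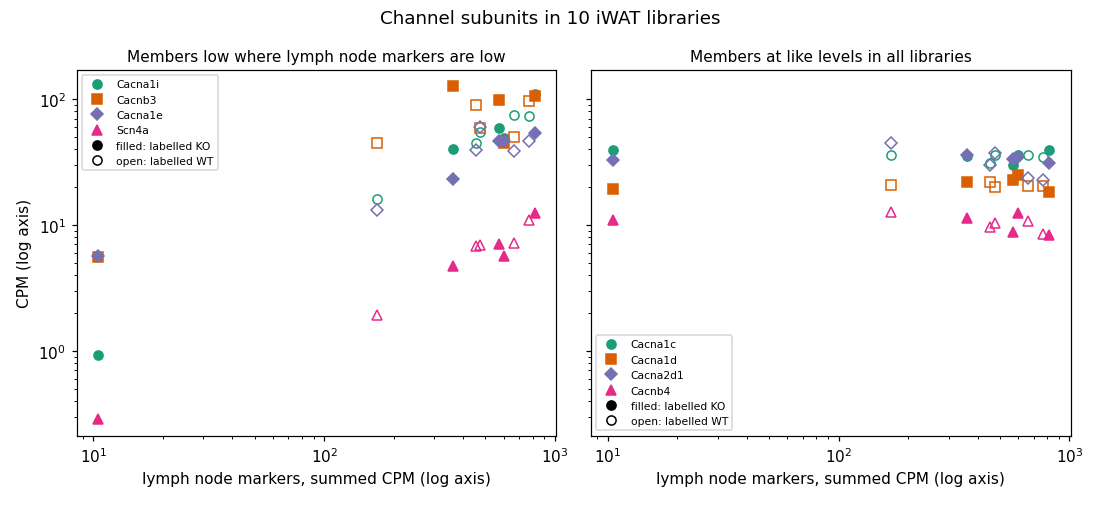
CPM (log axis) of 8 members against the summed CPM of 6 lymph node markers (log axis) in 10 iWAT libraries, filled symbols for labelled KO and open symbols for labelled WT. In the left panel Cacna1i, Cacnb3, Cacna1e and Scn4a are lowest in the library at 10.5 CPM on the x axis, and in the right panel Cacna1c, Cacna1d, Cacna2d1 and Cacnb4 stay near one level.

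The members known from skeletal muscle are given beside markers of that tissue. The summed level of 11 skeletal muscle genes was 557.5, 110, 175.9, 18.0 and 187.7 CPM in iWAT labelled KO and 149.9, 95.6, 147.4, 21.5 and 25.4 CPM in iWAT labelled WT. Cacna1s, the L-type pore of skeletal muscle, had 138, 37, 51, 4 and 61 counts in labelled KO and 40, 28, 39, 1 and 17 counts in labelled WT libraries. The library highest in the marker list, KO 31, was also highest in Cacna1s, and the 3 lowest in the list were the 3 lowest in Cacna1s. Cacng1 had 12, 2, 9, 4 and 3 counts in labelled KO and 6, 5, 6, 2 and 2 counts in labelled WT libraries. In the pituitary Cacna1s and Cacng1 had at most 4 and 5 counts per library. Scn4a had 240, 67, 118, 4 and 96 counts in iWAT labelled KO and 111, 106, 179, 29 and 108 counts in iWAT labelled WT. In the pituitary Scn4a had 0.972, 0.739, 0.973, 1.399 and 0.930 RPKM in labelled KO and 0.772, 1.47, 1.12, 1.21 and 0.999 RPKM in labelled WT libraries, close to its iWAT level, and it did not pass between WT tissues (log2 fold change 0.12, SE 0.35, edgeR adjusted p = 0.767). Cacnb1 had 4.39, 3.10, 2.71, 0.687 and 2.32 RPKM in iWAT labelled KO and 2.50, 3.05, 3.57, 1.93 and 2.15 RPKM in iWAT labelled WT, highest in KO 31 and lowest in KO 50. The part of muscle in these values was not tested.

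**Figure D5:**
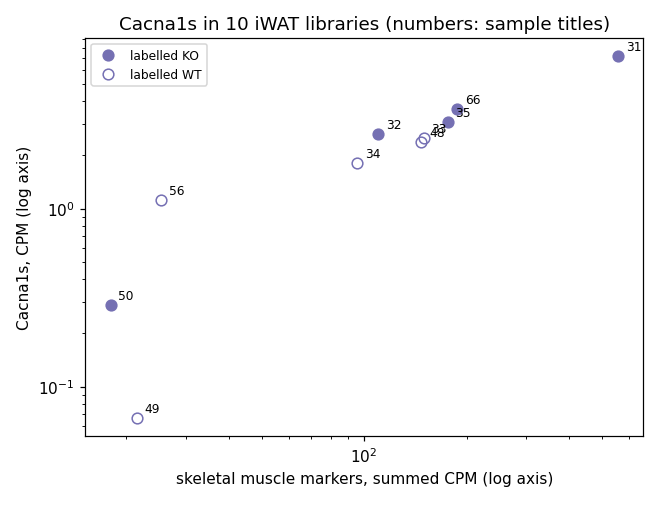
Cacna1s CPM against the summed CPM of 11 skeletal muscle markers in 10 iWAT libraries (both log axes), with title numbers; filled points are labelled KO and open points labelled WT. KO 31 is at the top right (557.5 CPM of markers, 7.20 CPM of Cacna1s), and KO 50 and WT 49 are at the bottom left with 0.286 and 0.0669 CPM of Cacna1s (4 and 1 counts).

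The difference between the KO effects of the 2 tissues (iWAT minus pituitary, 1 fit over 20 libraries) passed for none of 37 members, as for all 17731 genes (0% called, edgeR). No member was under an unadjusted p of 0.05, against 2.41% of all genes (1.42% higher and 0.987% lower). DESeq2 and limma voom also called none, with 3 members at an unadjusted p under 0.05 in voom. The 2.41% belongs to edgeR, so the voom count has no matching share of all genes. The smallest p belonged to Scn3a (difference 0.77, SE 0.38) and Cacng5 (1.41, SE 0.62), both with an edgeR adjusted p of 1. Cacng5 had at most 3 counts per iWAT library. Scn3a had 22 to 195 counts in iWAT labelled KO (1.57 to 10.2 CPM) and 35 to 62 counts in iWAT labelled WT (2.34 to 3.77 CPM). Its median was 3.77 CPM in the 8 iWAT libraries other than KO 50 and WT 49.

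Proteins that work with these channels were taken as 3 lists. Among 34 calcium channel partners tested, 22 were higher (64.7%, against 40.2% of all genes) and 6 lower in WT pituitary than in WT iWAT, and 21 (61.8%, against 37.3%) and 6 in mice labelled KO. In either direction 28 of the 34 were called in WT mice, a share near the 79.1% of all genes. The active zone protein Rimbp2 (9.40), Rem2 (6.02), a small GTPase that inhibits calcium channels, the priming factor Unc13a (4.44) and the kinase subunit Camk2g (1.57) had the smallest p, as log2 fold changes between WT tissues. Among 21 sodium channel partners 14 were higher (66.7%) and 7 lower in both genotypes, led in WT mice by Nfasc (5.24), Cntn1 (6.20), Fam155a (10.2) and Sptbn4 (6.21), which bind or anchor sodium channels or, for Fam155a, belong to the sodium leak channel. Among potassium and pacemaker channels, 32 of 44 were higher (72.7%) and 7 lower in WT pituitary and 33 of 43 (76.7%) and 6 in mice labelled KO, led in WT mice by Kcnmb2 (10.7), Kcnd2 (6.32), Kcnh2 (4.82) and Kcnd3 (5.30). In mice labelled KO the smallest p were those of Rimbp2 (8.70), Rims2 (7.11), Unc13a (4.22) and Ahnak (-2.37), of Unc79 (7.50), Nalcn (7.65), Fam155a (9.23) and Nrcam (5.09), and of Kcnmb2 (8.998), Kcnd2 (6.16), Kcnma1 (3.76) and Kcnj6 (7.91). Kcnmb2, Rimbp2, Fam155a and Rem2 averaged only 0.0125, 0.115, 0.126 and 0.242 CPM in WT iWAT, and Kcnj6 0.152 CPM in iWAT labelled KO. Partners this low in iWAT passed the filter on low counts only through the pituitary, which fixes the direction of their tissue difference. The size of their fold changes rests on counts near 0, and the counts of each list describe the genes tested.

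Between labelled KO and labelled WT pituitary no partner passed (0 of 34, 21 and 44 tested, edgeR), and 7, 5 and 7 had an unadjusted p under 0.05, against 10.9% of all genes. The smallest adjusted p was that of the pacemaker channel Hcn3 (log2 fold change 0.68, SE 0.14, adjusted p = 0.0509), followed in its list by Kcnmb4 (0.27) and Hcn4 (0.86). Of the calcium channel partners, Jph2, a protein that ties the surface membrane to calcium stores, had 0.77 (SE 0.19), Rem2 -0.46 (SE 0.12) and the calcium release channel Ryr3 0.34 (SE 0.10). Of the sodium channel partners, the adhesion protein L1cam had -0.53 (SE 0.14), and Fgf13, Fgf12 and Fgf14, which bind the tail of sodium channels, had 0.44, 0.23 and 0.14. In iWAT no partner passed and none of the 30, 19 and 32 tested had an unadjusted p under 0.05. The smallest p there had log2 fold changes of 0.81 (Cabp1), -0.32 (Gem), 0.36 (Stac3) and 0.87 (Ryr1), of 0.71 (Unc80), 0.31 (Sptbn4) and -0.22 (Ank3), and of -0.37 (Kcnj2), -0.47 (Kcnh2), 0.20 (Kcnq1) and 0.48 (Kcnn3). For the difference between tissues no partner passed, and 1 in each list had an unadjusted p under 0.05: Rem2 (1.07), L1cam (0.54) and Trpc4 (1.15). These are 2.94%, 4.76% and 2.17% of the lists, against 2.41% of all genes, and are given as values only. The next by p were Stac3 (0.37), Camk2g (0.14) and Jph2 (-0.55), Fam155a (0.95), Fgf13 (-0.49) and Unc80 (0.80), and Hcn4 (-0.98), Kcnj2 (-0.46) and Kcnh2 (-0.50).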

How the data were processed

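The deposited values are read counts, whole numbers for each gene. Per the file headers the authors made them with featureCounts over the exons of a UCSC mm10 annotation, from primary alignments, giving a read to every gene it overlapped and with no strand option. Per the submitters' processing notes, STAR 2.4.0, featureCounts 1.4.4, mm10 and GRCm38 were used. Members and lists were chosen with earlier results of these data known. Comparisons used the quasi-likelihood test of edgeR 4.0.16 (R 4.3.3) after filterByExpr and TMM scaling, with robust estimation and Benjamini-Hochberg adjustment over every gene tested at a threshold of 0.05. Each tissue or genotype was fitted alone, and the difference of effects in 1 fit. CPM and RPKM use TMM-scaled library sizes and the exon length in the files. DESeq2 1.42.0, limma voom (limma 3.58.1), other filters and scalings, age and leaving out each title number were alternatives, and the fits were tested on simulated data. The labels do not say that libraries come from separate animals, so p-values measure the spread between libraries. Library values are given for the 5 highest members in each tissue and those of muscle and sensory neurons; other members shown by library were chosen after their values were seen. Of each partner list the 4 members with the smallest p per comparison are named. Some members and partners that these rules name are not reported here. Counts of the 3 members that share exon bases with another gene are uncertain. Replicate libraries differed beyond sampling noise (reduced chi-square at least 4.70), and none was dropped.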

Additional observations from a re-analysis of the deposited data

Results flagged for a closer look

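In 5 of 128 combinations of member and group examined (3.9%), the highest or lowest of the 5 libraries lay farther from its neighbour than a test for outlying values (Dixon, 95% level) allows, and about 1 in 20 would do so by chance. The value is the gap to the nearest library over the range of the group. Scn3a was highest in pituitary KO 31 (174.1 CPM, next 156.4 CPM, 0.797), the library without which it passed the test as lower in labelled KO. Cacna1d was highest in pituitary KO 50 (320.1 CPM, next 279.0 CPM, 0.780). Cacna1i (49.4 CPM, next 37.0 CPM, 0.744) and Cacna1c (131.7 CPM, next 111.9 CPM, 0.715) were highest in pituitary WT 33. Cacna1c was lowest in iWAT WT 34 (31.0 CPM, next 34.8 CPM, 0.746). None of the 5 was in iWAT KO 50. No explanation of these values was tested.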

How the results depend on the processing

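No call of the pituitary genotype comparison came from a change of scaling or filter: it was 0 in all alternatives but DESeq2, with 2 members, and leaving out 1 library, with 0 to 1. The counts of the iWAT genotype comparison and of the difference between tissues were 0 throughout. The tissue counts were 31 to 35 in WT mice and 30 to 35 in mice labelled KO with the libraries of 1 title number left out. In iWAT the direction of uncalled members turned: Cacnb3 with age as a covariate (-0.59), and Cacna1i (0.36) and Scn4a (0.13) with mice of 21 weeks only. Leaving out each library gave ranges of -0.10 to 0.46 (Cacnb3), -0.50 to 0.29 (Cacna1i), -0.40 to 0.093 (Cacna1e), -0.59 to 0.16 (Scn4a), 0.61 to 1.39 (Cacna1s) and -0.0093 to 0.10 (Cacna1d). For Scn4a between tissues they were -0.16 to 0.35 in WT mice and -0.37 to 0.53 in mice labelled KO. The cause was not tested. With the title number as a replicate block, the tissue counts were 32 in WT mice and 31 in mice labelled KO (Cacna1e lost, adjusted p = 0.108), Cacna1i turned to 0.0088 in mice labelled KO, and the difference between tissues gave 0. The numbers were not taken to pair libraries, since no label says that a number is 1 animal. Deviations of same-numbered libraries correlated at -0.059 to 0.096, and highest with their own number for 4 of 10 numbers. These correlations cannot decide whether such libraries share an animal, because they compare different tissues. The genotype comparisons could not be blocked, since the labelled genotypes share no number within a tissue. In 1 fit over 20 libraries 1 pituitary member had an unadjusted p under 0.05, against 12. The share of all genes called at an adjusted p under 0.05 also fell, from 0.549% to 0.00564%. That is another measure, and the unadjusted share of all genes in the fit over 20 libraries is not at hand. Whether the drop was particular to the members therefore cannot be told. Low counts limit the 10 members not tested in iWAT.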
